A study of Mus musculus with 8 samples.

Results

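The 40 genes described here run the cell division cycle and copy the genome. They were chosen by name and not by a rule on their values, although earlier results of these data were known. They are 40 of the 21887 protein-coding genes of the RefSeq table of assembly GRCm38.p6, and all 40 were found in it. Chromatin around them was mapped by ATAC-seq, in which a transposase cuts accessible DNA and local excesses of reads are called as peaks. The cells were microglia, which are brain macrophages, isolated from the hippocampus at an age of 3 weeks in mice. There were 4 control libraries (Ctrl 1 to 4) and 4 from mice with intrauterine growth restriction (FGR 1 to 4). All 8 carry 1 copy of a Tmem119-tdTomato reporter, so that both groups share it. The labels name neither the way growth was restricted, nor sex, nor how many animals or litters stand behind a library. They also do not say that libraries came from separate animals, so p-values measure only the spread between these libraries.

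A dividing cell commits in G1, when D-type cyclins with CDK4 or CDK6, and then cyclin E with CDK2, inactivate the retinoblastoma protein and free the E2F factors. E2F factors switch on genes for licensing replication origins, for the fork machinery and for nucleotide supply. Genes of G2 and mitosis are read later and often carry a CCAAT box for the factor NF-Y and a cell cycle homology region (CHR) in the promoter. Microglia expand in the brain of newborn rodents, and few of them divide in the adult.

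Each library has its own peak list, of 16111, 10862, 22705 and 24195 peaks for Ctrl 1 to 4 and 27209, 23327, 29501 and 26246 for FGR 1 to 4. Read totals were not used here. The background coverage recovered from the deposited values is a guide to depth. It was 4.53, 3.01, 4.04 and 6.05 extended reads per base in Ctrl 1 to 4. In FGR 1 to 4 it was 3.82, 3.52, 4.82 and 4.60. The order of list lengths differed from that of coverage, as Ctrl 1 had more coverage than FGR 1 and FGR 2 but a shorter list. Ctrl 1 and Ctrl 2 stood apart, with median peak widths of 566 and 522 bp against 353 to 386 bp, and with summits displaced from the other 6 libraries (median distance 138 to 140 bp). FGR 1 and FGR 3 shared 9.14% of summits to the base, and FGR 2 and FGR 4 shared 7.57%, against 1.76% to 2.14% for other pairs among the 6. No Ctrl pair did so, with 0.00706% for Ctrl 1 and Ctrl 3 and 0.0396% for Ctrl 2 and Ctrl 4. The microglia markers Tmem119, Cx3cr1, Sall1 and Irf8 had a gene-end peak in all 8 libraries. Spi1 and P2ry13 had one in 3 Ctrl and 4 FGR libraries, Csf1r and Siglech in 2 and 4, Olfml3 in 2 and 2, P2ry12 in 0 and 1, and Gpr34 in none. No marker on the lists of other cell types had one in all 8 libraries. Flt1 had one in 1 Ctrl and 4 FGR libraries, Eomes in 2 and 3, Mbp in 2 and 2, and Neurog2 in 0 and 2. Per library, 0 or 1 marker had one on each of the lists of neurons (8 markers), astrocytes (6), oligodendrocyte lineage (9) and endothelial or mural cells (6). The numbers were 0 to 2 of 6 for neural progenitors and 0 of 6 for monocytes and neutrophils.

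The promoters of 7 of the genes that the results below describe are shown first. Among genes with a promoter entry, they are the strongest (Pcna), a helicase gene with 2 E2F matches (Mcm3), the 2 weakest called in every library (Cdk1 and Cdk2), the one whose rank had an unadjusted p under 0.05 (Cdc45), and those whose calls differed most between groups (Plk1 and Tyms). Mcm3 was chosen after its values were seen. Each runs from 250 bases before to 50 after a RefSeq transcription start on GRCm38.p6, 5′ to 3′ on the gene's strand. Capitals mark matches, on either strand, to the E2F motif, the CHR, the CCAAT box, the GC box or the TATA box spelled out further on.
Pcna, chr2:132253131-132253430, minus strand: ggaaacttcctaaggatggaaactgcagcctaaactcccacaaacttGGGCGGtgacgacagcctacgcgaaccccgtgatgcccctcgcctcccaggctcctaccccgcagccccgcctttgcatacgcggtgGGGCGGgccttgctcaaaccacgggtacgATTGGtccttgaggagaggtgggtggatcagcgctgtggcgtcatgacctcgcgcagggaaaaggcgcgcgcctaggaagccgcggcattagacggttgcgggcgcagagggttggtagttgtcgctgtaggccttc
Mcm3, chr1:20820263-20820562, minus strand: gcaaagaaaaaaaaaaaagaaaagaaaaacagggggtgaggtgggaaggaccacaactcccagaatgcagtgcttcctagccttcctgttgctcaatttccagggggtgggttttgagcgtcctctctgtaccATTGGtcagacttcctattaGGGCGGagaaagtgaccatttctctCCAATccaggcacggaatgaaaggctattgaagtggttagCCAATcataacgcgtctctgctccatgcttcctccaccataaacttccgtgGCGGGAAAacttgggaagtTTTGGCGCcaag
Cdk1, chr10:69352863-69353162, minus strand: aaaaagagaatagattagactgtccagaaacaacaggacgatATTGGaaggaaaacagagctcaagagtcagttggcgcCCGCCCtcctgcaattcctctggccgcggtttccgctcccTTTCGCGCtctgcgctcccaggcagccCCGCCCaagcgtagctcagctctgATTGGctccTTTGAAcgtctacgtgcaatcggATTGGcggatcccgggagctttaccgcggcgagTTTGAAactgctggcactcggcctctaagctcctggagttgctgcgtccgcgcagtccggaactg
Cdk2, chr10:128705002-128705301, minus strand: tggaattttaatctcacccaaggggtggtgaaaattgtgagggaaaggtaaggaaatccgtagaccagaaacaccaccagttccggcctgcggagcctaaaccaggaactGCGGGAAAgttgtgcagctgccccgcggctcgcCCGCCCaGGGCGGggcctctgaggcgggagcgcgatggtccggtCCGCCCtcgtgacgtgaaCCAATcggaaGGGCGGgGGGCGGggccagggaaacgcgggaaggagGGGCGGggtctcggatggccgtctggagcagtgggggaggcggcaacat
Cdc45, chr16:18811923-18812222, minus strand: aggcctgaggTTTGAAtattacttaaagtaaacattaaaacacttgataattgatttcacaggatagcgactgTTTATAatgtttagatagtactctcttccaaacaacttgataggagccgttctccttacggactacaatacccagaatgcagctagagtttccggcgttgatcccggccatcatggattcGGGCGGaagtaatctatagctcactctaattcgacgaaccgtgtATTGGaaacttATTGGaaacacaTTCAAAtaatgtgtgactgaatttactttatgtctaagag
Plk1, chr7:122159185-122159484, plus strand: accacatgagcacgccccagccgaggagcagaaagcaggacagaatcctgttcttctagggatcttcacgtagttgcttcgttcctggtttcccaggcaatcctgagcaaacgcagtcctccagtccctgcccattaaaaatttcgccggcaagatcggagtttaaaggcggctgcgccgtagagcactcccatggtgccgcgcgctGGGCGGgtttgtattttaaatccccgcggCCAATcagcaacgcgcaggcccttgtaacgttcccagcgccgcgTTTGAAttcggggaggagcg
Tyms, chr5:30073576-30073875, minus strand: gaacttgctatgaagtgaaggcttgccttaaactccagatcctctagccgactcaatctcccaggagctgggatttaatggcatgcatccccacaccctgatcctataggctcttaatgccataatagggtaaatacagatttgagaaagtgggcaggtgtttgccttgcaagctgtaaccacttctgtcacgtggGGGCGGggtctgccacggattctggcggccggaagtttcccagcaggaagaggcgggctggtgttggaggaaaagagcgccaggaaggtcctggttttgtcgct

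Most of these genes had open chromatin at an end. A peak counts as a gene-end peak where it comes within 1 kb of the annotated start or end of a gene. One was called in all 8 libraries for 24 of the 40 genes (60%), against 31.9% of all protein-coding genes, and in no library for 3 (7.5%) against 42.2%. These shares are set side by side as descriptions, with no test. By library, 32, 25, 34 and 35 of the 40 had one in Ctrl 1 to 4 and 31, 33, 36 and 34 in FGR 1 to 4. Ctrl 2, with the shortest list, had the fewest, and otherwise the groups overlapped. Of 97 further cell cycle genes in a list of origin, fork, checkpoint, spindle and cohesin factors, 68 (70.1%) had a gene-end peak in all 8 libraries. A library is a pool of cells, so a peak in few cells and a weak opening in many cannot be told apart.

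**Figure D1:**
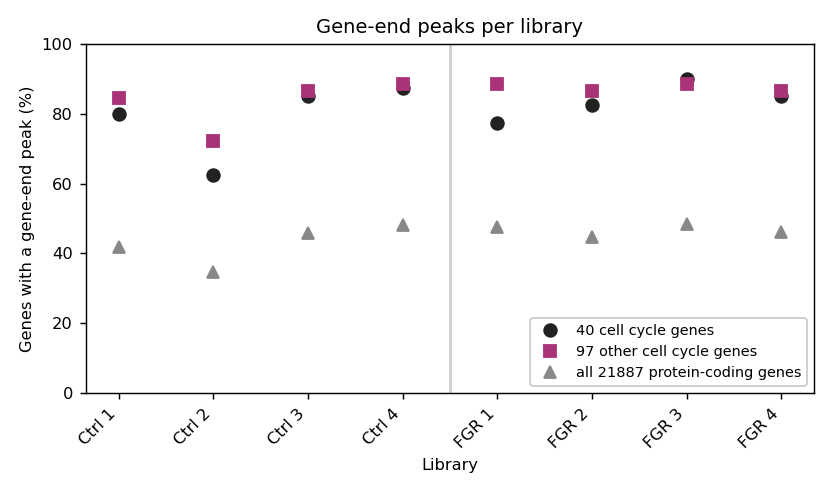
Percent of genes with a gene-end peak (vertical axis) in each of the 8 libraries (horizontal axis), for the 40 cell cycle genes (circles), 97 other cell cycle genes (squares) and all 21887 protein-coding genes (triangles). The circles lie between 62.5% in Ctrl 2 and 90% in FGR 3, above the triangles (34.8% to 48.5%) in every library.

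The strength of a gene-end peak is given as the percentile of its deposited −log10 q among all peaks of the same library, so that 100 is the top of that list. Lists differ in length, so a percentile describes a place within 1 list and shows no change between libraries. For the 24 genes called in every library the median of these percentiles over libraries had a midpoint of 82.1, against 80.4 for all 6975 genes called in every library and 83.1 for the 68 other cell cycle genes. Thus the 24 were called in every library at strengths close to those of other genes that were.

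Both markers of proliferating cells were called in all 8 libraries. Mki67, which encodes the Ki-67 protein that coats mitotic chromosomes (chromosome 7, 135689784 to 135716450), stood at percentiles 15.9, 47.6, 22.5 and 76.9 in Ctrl and 78.7, 42.7, 67.7 and 76.4 in FGR. Top2a, the topoisomerase that untangles sister chromatids (chromosome 11, 98992947 to 99024199), stood at 82.3, 24.4, 57.1 and 47.1 in Ctrl and 58.0, 73.8, 54.4 and 71.1 in FGR. The groups overlapped for both genes, and neither lay among the strongest peaks of its list.

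The MCM2 to MCM7 proteins form the ring that unwinds DNA at the fork, and 5 of their 6 genes were called in all 8 libraries. Mcm4 was the strongest of them, at percentiles from 89.6 to 98.0. Its end lies within 1 kb of an end of Prkdc, a DNA repair kinase gene, and the peak cannot be assigned to either. Mcm3 ranged from 70.7 to 89.4, Mcm6 from 60.6 to 86.8, Mcm7 from 67.4 to 89.0 and Mcm5 from 41.8 to 83.3. The Mcm7 peak also lies at an end of Ap4m1 and cannot be assigned to either gene. Mcm2 was the weakest, with no peak in Ctrl 2 and percentiles of at most 56.5 in the other 7 libraries.

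All 4 genes for loading and firing origins had a gene-end peak in all 8 libraries. Gins2, which encodes a subunit of the active helicase (chromosome 8, 120581266 to 120589075), had the highest median percentile of the 40, 98.6. It stood at 98.6, 96.2, 99.3 and 99.7 in Ctrl and 98.8, 97.8, 98.6 and 97.2 in FGR. The groups overlapped. One of its ends is within 1 kb of an end of Gse1, but its gene-end region called in all 8 libraries lay at no end of another gene. Cdc6, which loads the helicase with Cdt1, had a lowest percentile of 74.6, and Cdt1 ranged from 58.7 to 85.7. Cdc45, the helicase partner of the GINS complex, spread the most of the 4, from 8.03 in Ctrl 2 to 91.1 in FGR 4.

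Pcna, the sliding clamp of the fork polymerases (chromosome 2, 132249286 to 132253180), had the second highest median, 98.3. Its percentiles were 83.5, 91.4, 97.9 and 99.3 in Ctrl and 98.6, 99.0, 99.2 and 97.9 in FGR. The 2 lowest were those of Ctrl 1 and Ctrl 2, the libraries that stood apart. The Pcna peak also lies at an end of Cds2 and cannot be assigned to either gene. Rrm1 and Rrm2 encode the subunits of ribonucleotide reductase, which makes deoxynucleotides, and both lacked a peak in Ctrl 2 alone. Where called, Rrm1 ranged from 79.4 to 93.9 and Rrm2 from 1.58 to 62.5. Tyms, which makes thymidylate, was called in 3 libraries and is described with the group comparison.

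Of the 5 genes for D-type cyclins and their kinases, 1 was called in all 8 libraries, Cdk4, at percentiles from 77.3 to 96.7. Ccnd1 had no gene-end peak in any library, Ccnd2 had one in Ctrl 3 and FGR 3, and Ccnd3 in 2 Ctrl and 3 FGR libraries. At Ccnd3 and Cdk6 the annotated ends are not the only starts. The second promoter window of Ccnd3 in RefSeq (chromosome 17, 47593217 to 47593516), inside the annotated span, held a peak in all 8 libraries. The single promoter window of Cdk6 (chromosome 5, 3343643 to 3343942), over 1 kb inside its annotated span, held a peak in 3 Ctrl and 3 FGR libraries, although a gene-end peak was called in 1 of each. The gene-end measure thus missed open starts at these 2 genes. Ccnd1 and Ccnd2 have no promoter entry in the table.

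Of the 8 genes for the later cyclins, their kinases and the activating phosphatase CDC25A, 6 were called in all libraries. Ccna2, the S and G2 phase cyclin gene (chromosome 3, 36564865 to 36573038), had the third highest median, 97.2. It stood at 95.1, 95.5, 98.4 and 98.9 in Ctrl and 98.7, 95.5, 97.8 and 96.6 in FGR, and it shares its ends with Bbs7 and Exosc9. Ccne1, a cyclin of the G1 to S step, ranged from 79.4 to 92.3 and Cdc25a from 72.0 to 92.5. Ccnb1, the main mitotic cyclin gene, ranged from 33.3 to 84.9. Cdk2, the kinase of cyclins E and A (chromosome 10, 128697938 to 128705051), stood at 29.4, 50.8, 65.2 and 51.8 in Ctrl and 28.8, 35.9, 74.3 and 64.7 in FGR. Cdk1, the kinase that drives mitosis (chromosome 10, 69335146 to 69352912), stood at 56.0, 19.4, 60.4 and 60.5 in Ctrl and 58.6, 41.2, 33.2 and 83.3 in FGR. Both are in the middle of their lists, and the groups overlap. Ccne2 was missed in FGR 2 alone, and Ccnb2 in Ctrl 2, FGR 1 and FGR 2.

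The 7 genes of mitosis on this list were called less evenly. Of them 2 (28.6%), Aurka and Birc5, were called in all libraries, beside 31.9% of all genes. This did not hold for mitotic genes in general. Of 18 further genes of the spindle, kinetochore and cytokinesis, 13 (72.2%) were called in all 8 libraries. Aurka, a centrosome kinase gene, ranged from 66.4 to 95.0, and Birc5, the survivin gene of the chromosomal passenger complex, from 67.1 to 92.1. The Aurka peak also lies at an end of Cstf1 and cannot be assigned to either gene. Cdc20, an activator of the anaphase-promoting complex, lacked a peak in Ctrl 2 alone and otherwise ranged from 48.2 to 84.9. The spindle checkpoint genes Bub1 and Bub1b were each called in 3 Ctrl and 3 FGR libraries, and both were missed in Ctrl 2 and FGR 1. Bub1 did not exceed percentile 38.0. Aurkb, which encodes the passenger complex kinase, had no gene-end peak in any library. The regions nearest to it that were called in all 8 libraries lay 4138 bp below its lower end and at an end of Borcs6.

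Among the G1 regulators, Rb1, E2f1 and Cdkn1b were called in all 8 libraries and Cdkn1a in none. Rb1, the retinoblastoma gene (chromosome 14, 73192858 to 73325951), had the lowest median of the 24, 50.7. It stood at 25.5, 25.1, 68.9 and 73.5 in Ctrl and 51.0, 33.4, 65.6 and 50.5 in FGR, so that its 2 lowest values were again those of Ctrl 1 and Ctrl 2. E2f1 ranged from 70.8 to 95.2, although the 300 bp promoter window of RefSeq itself held a peak in 3 libraries. Cdkn1b, the gene of the CDK inhibitor p27, ranged from 55.8 to 92.4. Cdkn1a, the gene of the inhibitor p21 (chromosome 17, 29090979 to 29100722), had open regions in all 8 libraries within the gene (29095226 to 29095833) and 11524 bp below its lower end. Its annotated starts were open in fewer, 0 libraries for the first and 1 Ctrl and 2 FGR libraries for the second.

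**Figure D2:**
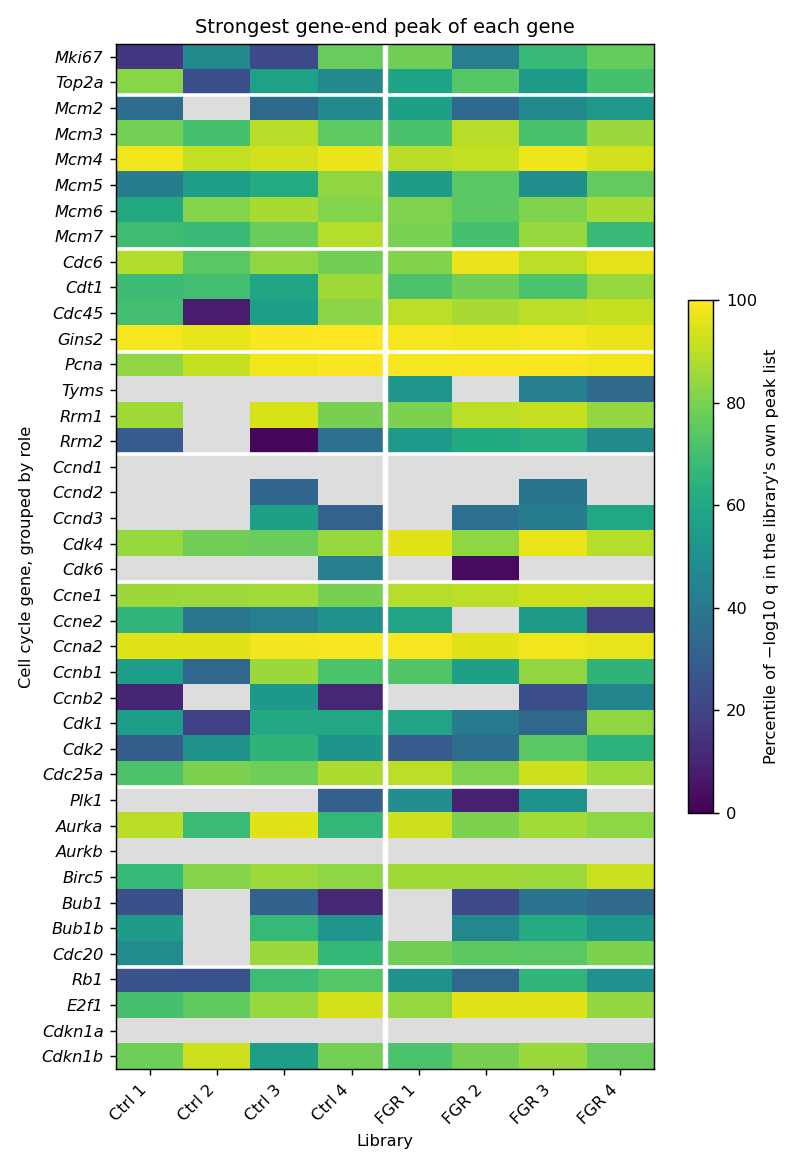
Percentile of the strongest gene-end peak of each of the 40 genes (rows, grouped by role) in each library's own list (columns), with grey for no peak. Gins2, Ccna2 and Mcm4 are at percentile 89.6 or above in all 8 lists, Ccnd1, Aurkb and Cdkn1a are grey throughout, and Ctrl 2 has 15 grey cells, the most of any library.

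The open end was nearly always the start of the gene. The promoter table gives a strand for 32 of the 40 genes (not for Mcm4, Gins2, Ccnd1, Ccnd2, Ccne2, Ccna2, Aurkb and Rb1). Of these 32, 31 had a peak within 1 kb of the 5′ end in at least 1 library, against 9720 of all 17492 genes with a strand. In all 8 libraries, 20 (62.5%) had one, against 32.2% of all genes with a strand. At the 3′ end, 2 (6.25%) had a peak in any library, Cdc25a in 5 and Ccne1 in 1, against 9.74% of all genes with a strand. In the 6 libraries other than Ctrl 1 and Ctrl 2, 86.6% of 172 summits lay within 250 bp of the 5′ end, with a median distance of 96 bp. Over all genes with a strand that share was 72.6% and the median 102 bp. In Ctrl 1 and Ctrl 2, 74.5% of 47 summits lay within 250 bp, with a median distance of 132 bp. Over all genes with a strand, these 2 libraries had 74.8% and 156 bp. Some genes had their summits farther off in the 6 libraries. Those of Cdt1 lay between -413 and -134 bp relative to its 5′ end, and those of Aurka and Cdc45 199 to 278 bp and 221 to 302 bp into the gene. Where called, the summits of Tyms lay 333 to 393 bp and those of Cdk6 394 and 395 bp into the gene.

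**Figure D3:**
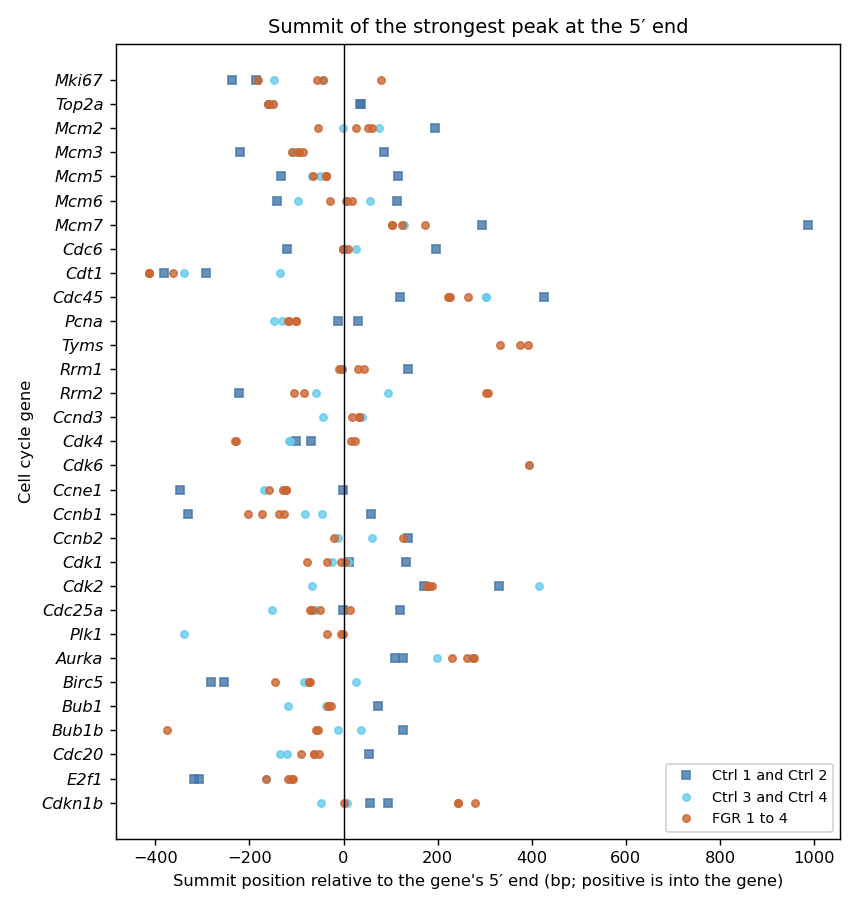
Position of the summit of the strongest peak at the 5′ end, in bp relative to that end (horizontal axis, positive into the gene), for the 31 genes with a strand and such a peak (rows), 1 point per library. Of the points of Ctrl 3, Ctrl 4 and FGR (circles) 86.6% lie within 250 bp of the 5′ end, and of those of Ctrl 1 and Ctrl 2 (squares) 74.5%. The square at 986 bp is Mcm7.

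The promoters differed from the average promoter in sequence, which the choice of genes did not use. All matches were counted on both strands in 35 windows of 300 bp for the 32 genes and in 21263 windows of all protein-coding genes. An E2F motif (TTTCCCGC, TTTGGCGC, TTTCGCGC or TTTGCCGC) was in 25.7% of the 35 windows and 2.85% of all. The CHR (TTTGAA) was in 28.6% and 16.0%, the CCAAT box (CCAAT) in 68.6% and 38.2%, and the GC box (GGGCGG) in 80% and 46.2%. The TATA box (TATAAA) was in 5.71% and 12.6%, the motif of NRF1 in 2.86% and 6.38%, and that of the myeloid factor PU.1 (GAGGAAGT) in 0% and 3.13%. The observed over expected CpG ratio had a median of 0.883 in the 35 windows and 0.567 in all. Matches of different motifs were counted separately even where they overlap, and a match is a run of letters, not a site of binding.

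E2F matches fell in genes for the G1 to S step, at Mcm3, Mcm5, Mcm6, Mcm7, Cdc6, Cdt1, Cdc25a and Cdk2, and at Cdk1. CHR matches fell mostly in genes read in G2 and mitosis, at Mki67, Top2a, Aurka, Bub1b, Ccnb2, Cdc20, Plk1 and Cdk1, and also at Mcm2 and Cdc45. Cdk1 alone held both. In the Cdk1 promoter printed above, the E2F match TTTCGCGC begins 131 bases before the start, and CHR matches begin 71 and 15 bases before it. In that of Mcm3, 2 E2F matches begin 19 and 38 bases after the start. All 9 genes with an E2F match had a gene-end peak in all 8 libraries, and so did 11 of the other 23. Of the 10 genes with a CHR match 5 did, and of the other 22, 15 did. Among all protein-coding genes with a promoter entry, 55.8% of those with an E2F match and 32.4% of those without had one, and 23.6% and 35.4% with and without the CHR. For the E2F motif and the CHR the direction was the same in the list as among all genes. For the CCAAT box it was not, at 60.9% with and 66.7% without a match in the list and 35.8% and 31.3% among all genes.

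Some of the ends are shared with a neighbour. Another protein-coding gene ends or starts within 1 kb of 13 of the 40 genes (32.5%), against 24.8% of all genes. Of these 13, 9 had a gene-end peak in all 8 libraries, and of the 27 without such a neighbour, 15 did. Among all genes the shares were 54.3% with a neighbour and 24.5% without. A peak at such a shared end cannot be assigned to either gene. At Gins2, Cdk4 and E2f1, which have such a neighbour, the gene-end region called in all 8 libraries lay at no end of another gene.

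Of the 40 genes, a mean of 31.5 ± 4.51 were called at an end in Ctrl and 33.5 ± 2.08 in FGR (SD, n = 4 libraries each), a difference within the spread of the Ctrl libraries. The FGR libraries that share summits may not be independent. The percent of all genes with one was 42.7 in Ctrl and 46.7 in FGR, so that the list of 40 followed the same direction as genes in general. The difference of 2 genes rested on Ctrl 2: without it the mean was 33.7 in Ctrl and 33.5 in FGR. The samples stand in the repository as 2 consecutive sets, replicates 1 and 2 of both groups and then replicates 3 and 4. Within the first set the means were 28.5 and 32 genes, and within the second 34.5 and 35. With every list cut to its 10862 strongest peaks the difference turned to -2.5 genes, and that of all genes turned with it, to -3.29 percentage points.

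Only 2 of the 40 genes differed by 2 or more libraries, both with more FGR calls, beside 4.94% of all genes. No gene of the 40 had 2 or more additional Ctrl libraries, against 1.04% of all genes. Tyms (chromosome 5, 30038546 to 30073645) lacked a gene-end peak in all Ctrl libraries and in FGR 2. It was called in FGR 1, FGR 3 and FGR 4, at percentiles 52.5, 43.7 and 34.5, with −log10 q of 6.82, 5.84 and 5.53. A difference of 3 or more libraries in that direction was found for 1.21% of all genes, and in the other for 0 of the 40 and 0.174% of all. The 3 summits lay 333 to 393 bp into the gene, in a region from 30073072 to 30073470, and none of the peaks reached the promoter window printed above. That window held no peak in any of the 8 libraries. FGR 1 and FGR 3 are a pair with shared summits, so the calls come from 2 pairs. With lists of equal length Tyms was called in no library. Fisher's exact test on 3 of 4 against 0 of 4 libraries gave p = 0.143 (adjusted p = 1).

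Plk1, a kinase of mitotic entry (chromosome 7, 122159435 to 122169884), was called at its start in Ctrl 4, FGR 1, FGR 2 and FGR 3. The percentiles were 30.6 in Ctrl 4 and 48.9, 8.94 and 50.8 in FGR, with −log10 q of 4.77, 6.27, 3.26 and 6.75. In FGR 1, FGR 2 and FGR 3 the summits stood at -5, -1 and -35 bp relative to the start, within the promoter printed above, and in Ctrl 4 at -339 bp. With lists of equal length Plk1 was called in no library, and within the second repository set in 1 Ctrl and 1 FGR library. Of the 40 loci that of Plk1 held the fewest peaks, a mean of 0.625 in its span and 20 kb on each side. Fisher's exact test gave p = 0.486 (adjusted p = 1). The smallest p that 4 against 4 libraries allow is 0.0286. After adjustment over the 5685 genes tested, 0 passed Fisher's exact test. An unadjusted p under 0.05 was found for 42 of them and for 0 of the 13 from the list of 40. Of the 97 other cell cycle genes, 0 differed by 3 libraries in either direction.

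Beyond their ends, the loci of the 40 genes, each the gene span with 20 kb on either side, held 194 regions of the union of all lists, of which 42 touched a gene end. Regions called in all 8 libraries made up 28.4% of the 194 and 16.9% of all 52251 regions, and regions of 1 library 29.9% and 45.9%. Of the 152 regions away from the 40 genes' own ends, 31 were called in all 8 libraries, and 16 of these 31 lay at an end of another gene. The region below Ccnd1 (chromosome 7, 144914544 to 144915580) is one of them, at an end of LTO1. The region 10547 bp above Ccnd2 (chromosome 6, 127162735 to 127163323) lay at no gene end and ranged from percentile 0.493 to 97.4.

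At least 3 more FGR than Ctrl libraries called 10 of the 194 regions (5.15%, against 4.33% of all regions), and at least 3 more Ctrl libraries called 0 (against 0.216%). A call in every FGR library and in no Ctrl library was found for 3 regions (1.55%, against 0.869%), and the opposite for 0 (against 0.0268%). The 3 lay 17062 bp above Top2a (chromosome 11, 99041261 to 99041630), 19895 bp below Birc5 (chromosome 11, 117828978 to 117829342) and 8375 bp below Gins2 (chromosome 8, 120572501 to 120572891). Each lies within the span of another gene, Igfbp4, Afmid and Gse1 in that order. Their percentiles in the FGR lists ranged from 6.59 to 45.4, from 34.4 to 65.3 and from 0.890 to 56.3. The gene-end peak of Birc5 itself stood at percentiles 67.1, 81.9, 85.4 and 83.0 in Ctrl and 85.7, 85.7, 85.4 and 92.1 in FGR, with overlap between the groups.

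Peaks per locus were compared with limma, on the log2 scale after adding 0.5 and dividing by list length (per 10000 peaks). Loci that averaged 2 peaks or more entered, 8037 in all. Of the 40 loci 28 entered. Of these 28, 0 passed limma after adjustment, while 0.0124% of all loci passed as higher and 0.0% as lower. By unadjusted p (under 0.05), 0 of the 28 were higher and 3 lower, beside 2.6% and 15.6% of all loci. The median difference over the 28 was -0.26 on the log2 scale, and over all loci it was -0.28. The difference was positive for 28.6% of the 28 and 22.5% of all loci. Without division by list length the medians were 0.33 and 0.31, with 89.3% and 88.6% positive, and with lists of equal length 0.02 and 0.00.

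The 3 loci were Pcna, Ccnd1 and Mcm7. Pcna held 4, 3, 5 and 5 peaks in Ctrl and 3, 5, 3 and 5 in FGR, or 2.48, 2.76, 2.202 and 2.07 against 1.10, 2.14, 1.02 and 1.91 per 10000, with overlap between the groups. Its log2 difference was -0.68 ± 0.25 (SE, limma adjusted p = 0.201), and the pair FGR 1 and FGR 3 gave the 2 low values. It was -0.09 without division by list length and -0.16 with equal lists. Ccnd1 held 1, 1, 3 and 5 peaks in Ctrl and 1, 1, 2 and 2 in FGR, and differed by -0.99 ± 0.38 in log2 (SE, limma adjusted p = 0.208), or by -0.41 without division by list length. Mcm7 held 5, 4, 5 and 5 in Ctrl and 6, 4, 5 and 4 in FGR, and differed by -0.60 ± 0.23 in log2 (SE, limma adjusted p = 0.208), which turned to 0.03 with equal lists and was -0.01 without division by list length. In raw numbers the Mcm7 counts of the groups overlapped.

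Cdk6, Ccnd3 and Rb1 held the most peaks, and their spans are the 3 longest of the 40. The Cdk6 locus (chromosome 5, 3341004 to 3531008) held 9, 6, 10 and 11 peaks in Ctrl and 14, 14, 13 and 14 in FGR. All FGR counts lay above all Ctrl counts, yet per 10000 peaks the values were 5.59, 5.52, 4.40 and 4.55 against 5.15, 6.002, 4.41 and 5.33 and overlapped. The log2 difference was 0.03 ± 0.16 (SE, limma adjusted p = 0.922). Without division by list length it was 0.62 (limma adjusted p = 0.257). Inside Cdk6, a region called in 2 Ctrl and 4 FGR libraries lay at 3355319 to 3356251, and the region at 3502359 to 3503254, called in all 8, reached percentile 96.1. Ccnd3 held 5, 3, 7 and 8 peaks in Ctrl and 7, 6, 9 and 6 in FGR (log2 difference -0.26 ± 0.20 SE, limma adjusted p = 0.404), which turned to 0.32 without division by list length. Rb1 held 6, 3, 5 and 6 in Ctrl and 9, 7, 7 and 7 in FGR, differing by -0.01 ± 0.21 in log2 (SE, limma adjusted p = 0.973). Without division by list length the Rb1 difference was 0.58.

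**Figure D4:**
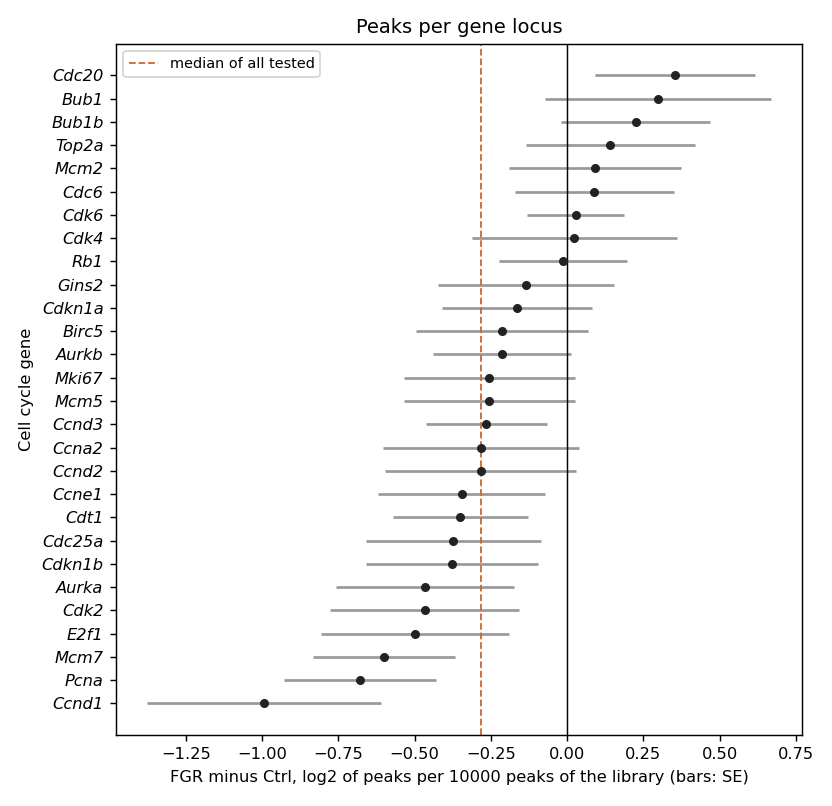
Difference between FGR and Ctrl in log2 of peaks per 10000 peaks (horizontal axis, with SE from limma) for the 28 gene loci tested (rows). The values run from -0.99 at Ccnd1 to 0.35 at Cdc20 around the dashed median of all 8037 loci, -0.28, and none passed after adjustment.

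Strength at gene ends was compared on ranks among the 6975 genes called in all 8 libraries, which puts every library on the same set of genes. Of the 24 genes in that set, 10 ranked higher and 14 lower in FGR on average, and 49.4% of all genes ranked higher. With the deposited fold in place of the −log10 q, 54.2% of the 24 and 50.1% of all genes ranked higher. After adjustment, 0 of the 24 and 0.0% of the 6975 passed limma in either direction. By unadjusted p (under 0.05), 1 of the 24 was higher and 0 lower, beside 6.85% and 5.92% of all genes. That gene was Cdc45 (chromosome 16, 18780447 to 18811972), at ranks 41.3, 2.55, 14.5 and 47.8 in Ctrl and 67.2, 64.3, 65.2 and 72.3 in FGR. Every FGR value lay above every Ctrl value, with the FGR values close together and the Ctrl values spread. The difference was 40.7 ± 11.9 percentile points (SE, limma adjusted p = 0.221). Its end lies within 1 kb of an end of Ufd1, so that the peak cannot be assigned to either gene. The difference was 31.0 to 47.8 points over the alternatives run, and the adjusted p was never below 0.170.

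The 3 strongest genes of the list stayed near the top in both groups. Gins2 had mean ranks of 96.7 in Ctrl and 93.2 in FGR, a difference of -3.53 ± 2.39 points. Ccna2 had 92.9 and 90.1, a difference of -2.81 ± 3.04. Pcna had 85.1 and 95.1, a difference of 10 ± 5.02 (SE, limma adjusted p = 0.405), with 63.9 in Ctrl 1 and 85.8 in Ctrl 2 against 93.3 and 97.5 in Ctrl 3 and Ctrl 4. The 3 weakest, Rb1, Cdk2 and Cdk1, differed by -8.53 ± 6.85, -2.80 ± 8.15 and 3.03 ± 9.09 points (SE), with limma adjusted p of 0.627, 0.927 and 0.931. A miss of the threshold does not show that the groups are alike, since the standard errors reach 13.6 points at Cdkn1b.

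**Figure D5:**
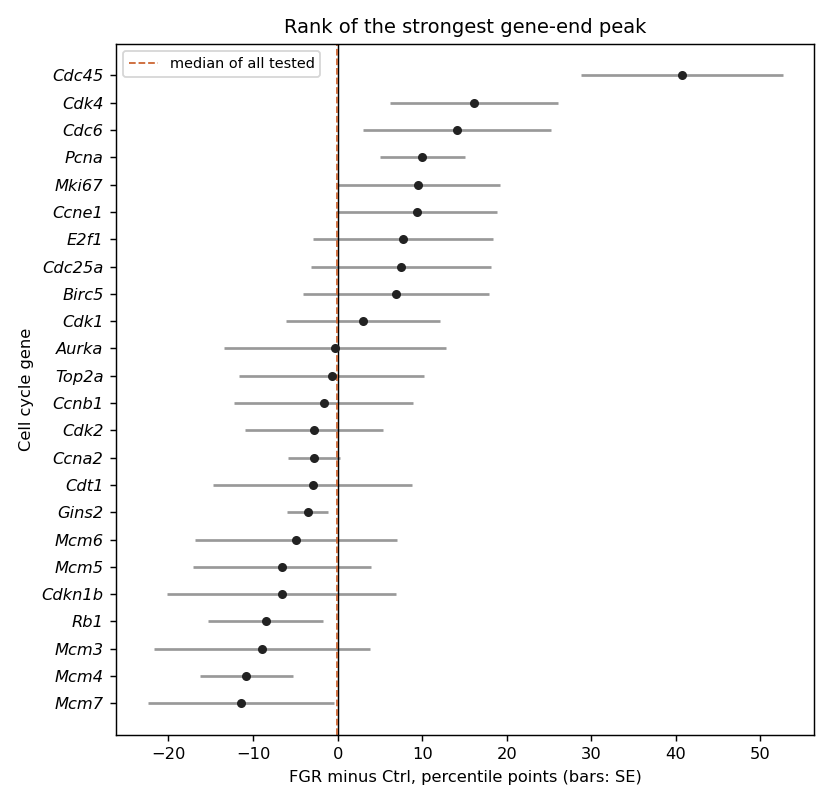
Difference between FGR and Ctrl in the percentile rank of the strongest gene-end peak (horizontal axis, in percentile points, with SE from limma) for the 24 genes called in all 8 libraries (rows). Cdc45 lies apart at 40.7 points, and the other 23 lie between -11.4 at Mcm7 and 16.2 at Cdk4.

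The contrast between FGR and Ctrl was also compared between the 2 repository sets, with an interaction term in limma. After adjustment, 0 of the 28 loci and 0 of the 24 ranks passed. By unadjusted p (under 0.05), 2 loci (E2f1 and Gins2) and 2 ranks (Pcna and Cdkn1b) passed, beside 5.38% of all loci and 4.5% of all ranks.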

How the data were processed

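Peak lists of 8 ATAC-seq libraries were used, 1 per library. Per the submitters' processing notes, the tools included MACS2 (version 2.2.7.1) and Bowtie2 (version 2.4.5). Those notes also list Trim Galore (0.6.5), SAMtools (1.3.1) and DiffBind (3.12.0), with mm10 as the build. The sources used here do not say what each was used for, or whether reads were shifted or duplicates dropped. The deposited score, a whole number 10 times the −log10 q, was not used. The deposited ratio (fold of the summit over local background) and −log10 p served to recover background coverage, and the fold also as an alternative ranking. The deposited −log10 q ranked or filtered peaks within a list.

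Genes came from RefSeq (GRCm38.p6, the coordinates of mm10), and promoter sequences and strand from its promoter table, which holds 32 of the 40 genes. Overlap needed 1 bp. Tests were limma 3.58.1 with a trend (R 4.3.3) and Fisher's exact test, two-sided, with Benjamini-Hochberg adjustment over all genes or loci and a threshold of 0.05. Overlaps and ranks were computed in Python 3.11.15 (pandas 2.3.3, with numpy 2.4.6), Fisher's test in scipy 1.17.1 and plots in matplotlib 3.10.9. The scripts were tested on simulated data. There, limma recovered 5 of 100 loci changed by a fold of 2 and 81 of 100 changed by a fold of 4, with 0 false calls. It recovered 8 of 100 ranks shifted by 20 points and 36 of 100 shifted by 40 points, with 2 false calls. The simulated libraries were drawn independently, with Poisson counts per locus and without repository sets or pairs of libraries. These shares therefore need not hold for the real libraries. The background coverage is the lowest local background that the deposited values of a list give.

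The 40 genes and all lists were chosen with earlier results of these data known. Of the microglia markers, 1 item is not reported here. Named genes are those whose gene-end calls differ by 2 or more libraries, the 3 highest and 3 lowest by median percentile among those called in all libraries, loci and ranks with an unadjusted p under 0.05, the 3 loci with most peaks, and genes with a region called in 4 libraries of 1 group alone. Alternatives were −log10 q of at least 5, lists of equal length, other windows, flanks, filters and pseudocounts, terms for replicate or deposit, and leaving out libraries. Libraries 1 with 3 and 2 with 4 of each group were also averaged.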

Additional observations from a re-analysis of the deposited data

How the results depend on the processing

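None of the 40 genes was called by limma in any of 20 other fits of peaks per locus or 18 other fits of ranks, with adjusted p at or above 0.0966 (Pcna locus, replicate block) and 0.170 (Cdc45 rank, equal-length lists). Same-numbered libraries of the groups had correlations of -0.0176, 0.0977, 0.0671 and 0.0290 in their deviations over loci. Other-numbered libraries had -0.121 to 0.108, so these small values cannot settle whether replicate numbers pair the groups. With the replicate block, limma called 0 of the 28 loci and 0 of the 24 ranks in either direction, and 54 higher and 87 lower among all loci, against 1 and 0 without it. With a pseudocount of 1 it called 7 higher and 50 lower, without division by list length 10 and 1, with equal-length lists 13 and 7, without a filter 7 and 9, and 0 to 8 higher and 0 to 7 lower with 1 library left out.

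The difference in the number of genes with a gene-end peak ranged from -0.167 (without Ctrl replicate 2) to 3.17 when 1 library was left out. It was -2.5 with equal-length lists and -1 without Ctrl replicates 1 and 2. The count of genes with at least 0.75 of libraries more in FGR was 1, between 0 and 2 when 1 library was left out. Tyms was lost without FGR replicate 1, 3 or 4 (counts of 0, 0 and 1), and Plk1 was added without Ctrl replicate 4 (count of 2) or FGR replicate 4. With equal-length lists it was 0, and 1 gene, Cdk1, then had more Ctrl calls. Between 17 and 33 of the 40 genes had a gene-end peak in all libraries used, over all alternatives.

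Of the 28 loci, 25 had a positive difference without division by list length, against 8 with it, and none was called either way. Among the loci described with values per library, these turned. Mcm7 had 0.031 with equal-length lists, and Ccnd3 0.32 without division by list length. Cdk6 had -0.046 in the first repository set alone, and ranged from -0.042 (without FGR replicate 2) to 0.105 (without FGR replicate 3), also below 0 without Ctrl replicate 3 or 4. With the stricter −log10 q minimum of 5, Rb1 had 0.86 (limma adjusted p = 0.142). It had 0.27 with equal-length lists, 0.58 without division by list length, 0.24 without Ctrl replicates 1 and 2, and 0.079 in the second repository set alone. Leaving out 1 library gave Rb1 -0.121 (without Ctrl replicate 3) to 0.124 (without Ctrl replicate 1). The cause was not tested. Peak calls depend on depth, and read totals were not used here.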
